A study of Mus musculus with 12 samples.

Results

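The 10 serotonin (5-hydroxytryptamine, 5-HT) receptor genes Htr1a, Htr1b, Htr1d, Htr1f, Htr2a, Htr2c, Htr4, Htr5a, Htr6 and Htr7 were examined in mouse striatum with and without trace amine-associated receptor 5 (TAAR5). They were taken by gene name from a table of 57132 features, and each name matched 1 row. All mice were C57Bl/6 littermates aged 10 months, of which 6 carried the knockout (TAAR5-KO) and 6 were WT (TAAR5-WT in the labels). A coronal slice reaching from 2 mm anterior of Bregma back to it was freed of cortex, and what was left, the striatum, gave 1 library of ribosomal RNA-depleted, single-end reads per mouse. Such a piece can hold septum, ventricle lining and cortical remnants beside striatum. Per the methods both sexes were used, but no column is tied to a sex or an animal, so the libraries are called NK1 to NK6 (labelled TAAR5-KO) and NK7 to NK12 (labelled WT).

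Serotonin reaches the striatum through axons of raphe neurons, whose cell bodies lie in the brainstem, and the receptors counted here are made by the cells that receive it. The receptors of the 5-HT1 and 5-HT5 families couple to Gi/o proteins and lower cAMP. Those of the 5-HT2 family couple to Gq and phospholipase C, and 5-HT4, 5-HT6 and 5-HT7 couple to Gs and raise cAMP. In the striatum, 5-HT1B is known as a receptor of spiny neuron terminals, and 5-HT2C is also strongly made by the epithelium of the choroid plexus, the tissue in the ventricles that secretes cerebrospinal fluid.

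The receptors are related in sequence, so it was examined first whether reads of 1 receptor could be counted for another. The stretch below was chosen because it holds the most conserved codons of the family, those of the Asp-Arg-Tyr motif after the third transmembrane segment. It is shown for the pairs most alike within the 5-HT1 and 5-HT2 families. Each sequence is the 42-base coding stretch of the gene's own strand in GRCm39, 5′ to 3′, with the motif codons in capitals.
Htr1b (chr9:81514159-81514200, minus strand): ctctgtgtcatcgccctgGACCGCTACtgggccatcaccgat
Htr1d (chr4:136170148-136170189, plus strand): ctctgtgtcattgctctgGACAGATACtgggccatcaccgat
Htr2a (chr14:74882511-74882552, plus strand): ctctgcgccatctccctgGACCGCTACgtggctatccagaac
Htr2c (chrX:145952649-145952690, plus strand): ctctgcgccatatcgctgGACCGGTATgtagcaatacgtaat

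Htr1b and Htr1d differed at 4 of these 42 bases and Htr2a and Htr2c at 10. Even so, the longest identical run between the counted exons of any 2 of the 10 genes was 26 bases, the coding run gcgtccatcatgcacctctgcgccat of Htr2a and Htr2c. The next was the coding run tactgggccatcaccgatgc of Htr1b and Htr1d, of 20 bases. Both were far below the read length of 100 bases. No annotated transcript of another gene matched the exons of a receptor at 90% identity over at least 100 bases, except Gm61665, a long non-coding RNA of the later GENCODE M39 release, which lies in place over the 5′ end of Htr2c on the other strand and is no row of the table used. The exons of Htr1b overlapped those of D430036J16Rik, a long non-coding RNA of the opposite strand, over 852 bases (18.04% of the Htr1b exons). The strand setting of the counting is not named, so reads in these bases cannot be assigned with certainty. The other 9 receptor genes shared no exon base with another feature of the annotation used.

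The knockout was looked at first. Taar5 had 1 to 6 counts in the libraries labelled TAAR5-KO and 0 to 2 in those labelled WT, which goes against the labels. In CPM, defined below, Taar5 had 0.142 ± 0.062 (SD, n = 6) under the TAAR5-KO label and 0.022 ± 0.038 under the WT label. Of the libraries labelled TAAR5-KO, 4 were above every library labelled WT. Of those labelled WT, 5 were below every library labelled TAAR5-KO. The exception was NK11, labelled WT, at 0.092 CPM, which was above NK4 and NK5. There were 19 counts in all, with 11 of 12 libraries at 3 counts or fewer, and whether the labels are right was not tested. Every direction given here therefore follows the labels alone. Total counts ran from 11269915 to 34824450 per library, but ribosomal RNA held 64.3% to 88.1% of them, and 1819907 to 6399188 counts remained outside it. Ribosomal RNA held 82.1% ± 6.29 (SD, n = 6) of the counts under the TAAR5-KO label and 76.9% ± 9.96 under the WT label (exact permutation test, two-sided, p = 0.312), and 5 libraries were above 85% (NK1, NK2, NK3, NK9 and NK10). Levels are given in CPM, read counts scaled to a library size of 1000000 after TMM (trimmed mean of M-values) normalisation in edgeR. The spiny neurons of the labelled tissue were present in each library. Their 6 D1 markers summed to 44.4 ± 5.91 CPM (SD, n = 6) under the TAAR5-KO label and 37.2 ± 6.57 CPM under the WT label (exact permutation test, two-sided, p = 0.0606, 0.242 after adjustment over 8 marker lists), and their 6 D2 markers to 115 ± 9.44 and 99.2 ± 17.7 CPM (exact p = 0.0346, adjusted 0.242). Of the D2 sum, Penk alone held 85.6 CPM under the TAAR5-KO label and 72.3 CPM under the WT label. Gpr6 was the 1 D2 marker with a negative log2 fold change (−0.27). Summed markers of cholinergic interneurons (exact p = 0.502), septum (exact p = 0.905) and serotonin neurons (exact p = 0.381) did not separate the labels by the exact permutation test. The serotonin neuron sum (1.995 CPM under the TAAR5-KO label, 1.82 under the WT label) was mostly Slc18a2 (1.86 and 1.57 CPM). Slc6a4 and Fev had 3 counts or fewer in 12 libraries and Tph2 in 9, so this sum cannot compare serotonin neurons between labels. In bulk tissue, fewer cells of a type and less RNA per cell cannot be told apart.

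The 10 receptor genes together received 8210 counts over the 12 libraries. Htr2c held 40.15% of them, Htr2a 17.73% and Htr1b 16.02%, and no other receptor above 6.58%.

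The floor was set at 3 counts, the most that a library with a count of 0 may be read as. Htr6 alone of the 10 receptors touched it, in 3 of 12 libraries (0 counts in NK1, 3 in NK3 and 2 in NK10). The other 9 were above it in all 12 libraries, with lowest counts from 4 for Htr1d (NK9) to 102 for Htr2c (NK3). Of the remaining mouse receptor genes, which are not among the 10, Htr3b was at or under the floor in 12 libraries, Htr5b in 10, Htr2b in 9 and Htr3a, the subunit that forms the 5-HT3 ion channel, in 5. Features were filtered at the cutoffs of the study's methods, 0.5 CPM in 3 or more libraries. With CPM on total counts, used here, 13902 features and all 10 receptors passed. With CPM on TMM library sizes, 13053 features and 9 receptors passed, and the methods do not say which was used. The receptor lost was Htr6, which passed on total counts in 4 libraries, 2 of each label, and had no library at 0.5 CPM on the TMM scale. On total counts Htr7 passed in 3 libraries labelled TAAR5-KO and 6 labelled WT.

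**Figure D1:**
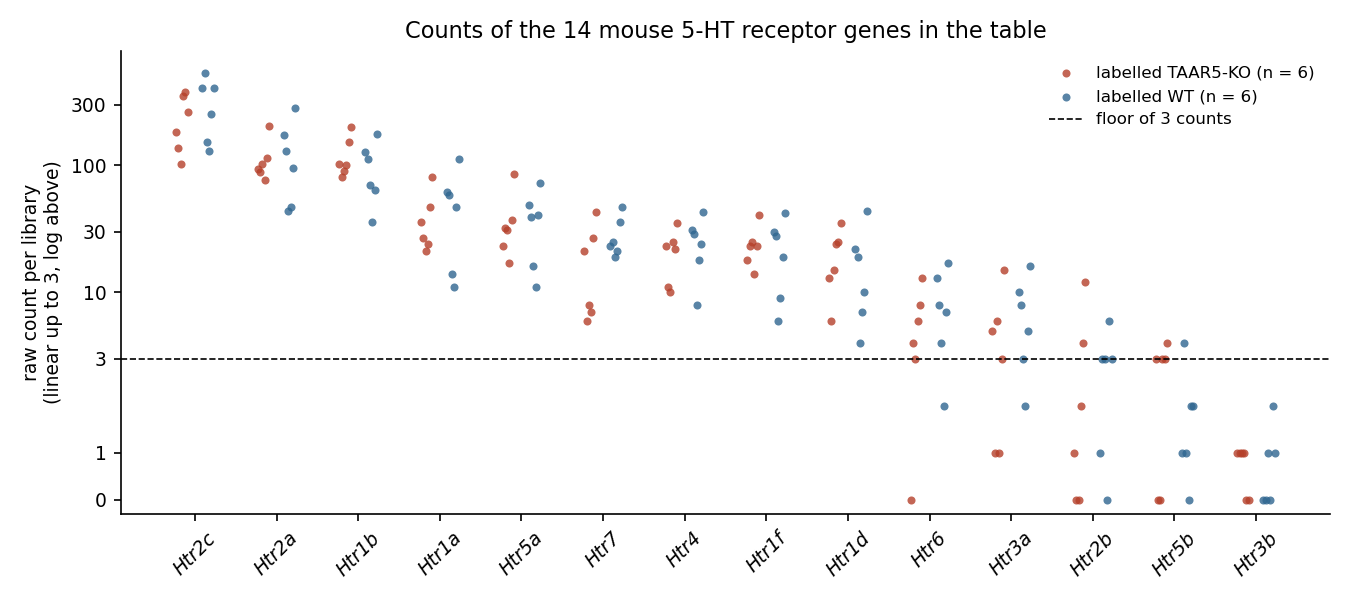
Raw counts of the 14 mouse 5-HT receptor genes of the table in each of the 12 libraries (points, coloured by label), on an axis that is linear up to the floor of 3 counts (dashed line) and logarithmic above it. Htr2c, Htr2a and Htr1b lie far above the floor in every library, Htr6 falls to it in 3 libraries, and Htr3b never rises above it.

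Levels of different genes were compared per length, as CPM per kb of the merged exons in the deposited table. Htr2c was highest, with 1.495 ± 0.524 CPM per kb (SD, n = 12), followed by Htr1b with 1.19 ± 0.331 and Htr2a with 1.05 ± 0.211. Neighbours in this order were taken to differ beyond their spread where the ranges of mean ± SD did not overlap. By this measure, on merged exons, the first 3 did not differ, and Htr2c was above Htr1b in 8 of 12 libraries and Htr1b above Htr2a in 8 of 12. The merged exons of Htr2c hold 9328 bases, against 4897 in its longest transcript of the later release (4724 and 4745 for Htr1b). By transcript length Htr2c would stand higher above Htr1b, and whether their ranges overlap there was not computed. The step from Htr2a to Htr1a, the next in order at 0.453 ± 0.0988 CPM per kb, was 2.31-fold and was seen in 12 of 12 libraries. On merged exons it was the only step between neighbours with ranges that did not overlap. From Htr1a the levels declined without a break through Htr1f (0.450), Htr7 (0.358), Htr5a (0.335), Htr1d (0.272) and Htr4 (0.242) to Htr6 (0.135 CPM per kb). The ranges of mean ± SD of these neighbours overlapped, although Htr4 was 1.80 times Htr6 and above it in 11 of 12 libraries. Among the 13902 features that passed the filter, whose median was 0.558 CPM per kb, Htr2c stood at percentile 76.95 and Htr6 at percentile 12.29.

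**Figure D2:**
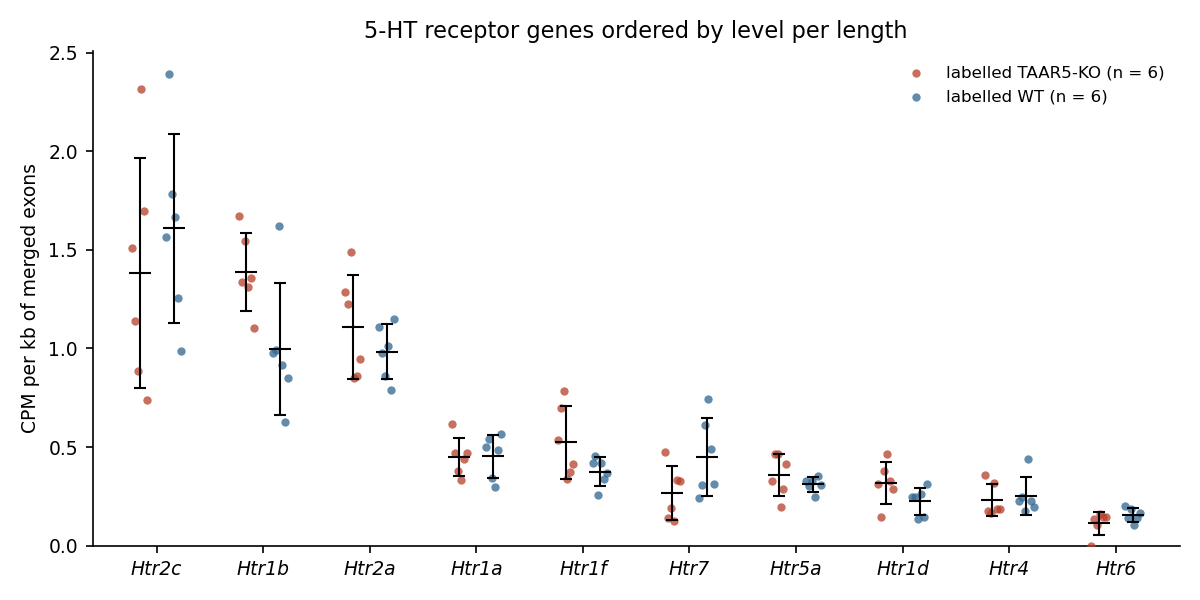
Level per length of the 10 receptor genes (CPM per kb of merged exons, linear axis), ordered by the mean of all 12 libraries, with each library as a point and the mean and SD of each label (n = 6) as a bar. Htr2c, Htr1b and Htr2a lie around 1 to 1.5 CPM per kb, and the other 7 genes around 0.45 or lower.

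Genotypes were compared with the test named in the study's methods, edgeR's likelihood ratio test at an adjusted p under 0.1, fitted and adjusted over all 13902 features. No receptor was past the threshold (0 of 10), where 1.65% of all features were. At an unadjusted p under 0.05 there were 2 of 10, Htr1b and Htr7, against 11.9% of all features. With the quasi-likelihood test 0 of 10 were past the threshold (0.453% of all features) and 1 of 10 had an unadjusted p under 0.05 (12% of all), and with DESeq2 1 of 10 did (9.73% of all). DESeq2 gave an adjusted p for only 3 receptors, Htr1b, Htr2a and Htr2c, of which 0 were past the threshold (1.27% of all features). With the filter on TMM library sizes, 0 of the 9 receptors tested were past the threshold (1.79% of all features) and 2 had an unadjusted p under 0.05 (12.3% of all). Without the filter they were 0 (0.213%) and 2 of 10 (7.84%). The CPM of the 6 and 6 libraries overlapped for every receptor, so that 0 of 10 were separated, where 1.01% of all features were. The log2 fold changes ran from −0.64 to 0.51 with a median of 0.03, against a median of −0.01 over all features. Of the 5 Gi/o-coupled receptors, 4 had a positive log2 fold change (median 0.37), of the 2 Gq-coupled receptors 1, and of the 3 Gs-coupled receptors 0 (median −0.37), where 48.9% of all features were positive. Without the 5 libraries over 85% ribosomal RNA, 2 of the 5 Gi/o-coupled, 1 of the 2 Gq-coupled and 0 of the 3 Gs-coupled receptors were positive. With library size as the only scaling, which shifts the median of all features by −0.49, 9 of the 10 were negative.

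**Figure D3:**
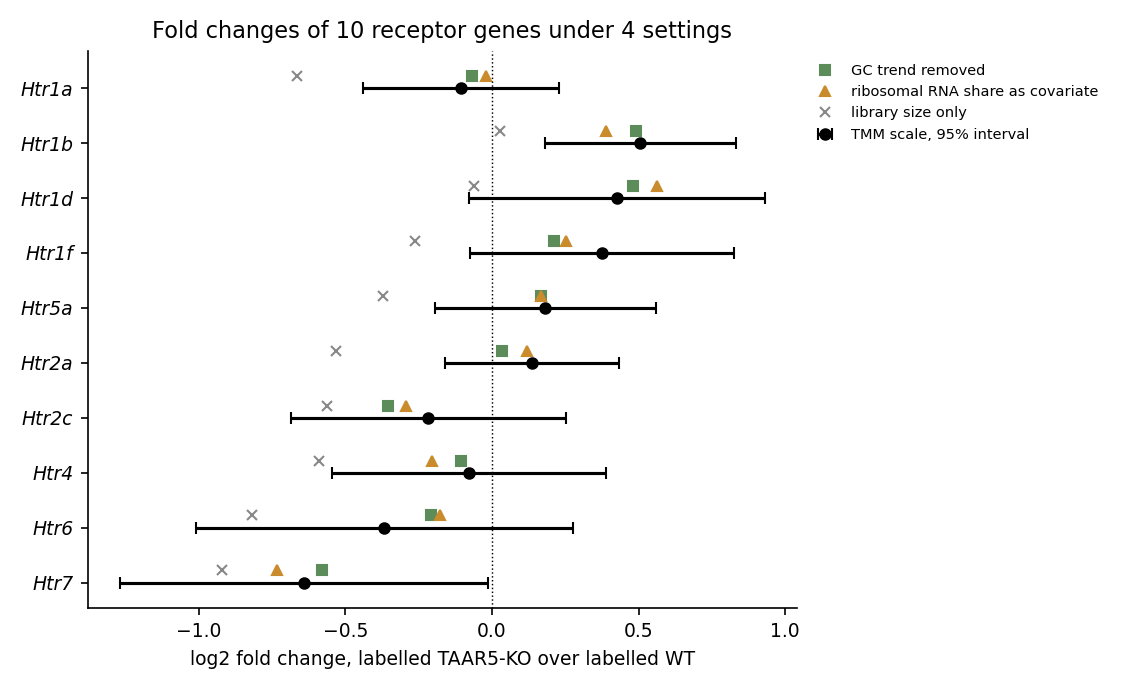
Log2 fold changes of the 10 receptor genes (labelled TAAR5-KO over labelled WT), with the 95% interval on the TMM scale (black) and the estimates with the GC trend removed, with the ribosomal RNA share as covariate and with library size only. The interval excludes 0 for Htr1b and Htr7, whose adjusted p were 0.118 and 0.408 by the likelihood ratio test, and the estimates with library size only lie to the left of all others.

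Htr1b, the Gi/o-coupled receptor of nerve terminals (ENSMUSG00000049511.6, chromosome 9, 81510344 to 81515881), came nearest to the threshold. It had 81 to 200 counts in libraries labelled TAAR5-KO and 36 to 178 in those labelled WT. Its level ran from 5.22 through a median of 6.37 to 7.89 CPM in libraries labelled TAAR5-KO and from 2.95 through 4.47 to 7.66 CPM in libraries labelled WT. All 6 libraries labelled TAAR5-KO were above the median of those labelled WT, and 5 of the 6 libraries labelled WT were below every library labelled TAAR5-KO. The exception was NK9, labelled WT, at 7.66 CPM. The means were 6.56 ± 0.929 and 4.71 ± 1.57 CPM (SD, n = 6), which gave 0.51 on the log2 scale (SE 0.17), with an adjusted p of 0.118 by the likelihood ratio test and 0.212 by the quasi-likelihood test.

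Without NK9 the log2 fold change of Htr1b was 0.66 and without NK6 it was 0.58, and both were past the threshold (adjusted p = 0.00241 and 0.0735, against a range of 0.00241 to 0.974 over all 25 alternatives). It was positive in all 25 of them, down to 0.03 with library size only. NK9 is 1 of the 5 libraries with over 85% ribosomal RNA, and these ran from 4.34 to 7.89 CPM of Htr1b, against 2.95 to 6.42 CPM in the other 7. Within the libraries over 85%, the means were 7.17 CPM (3 labelled TAAR5-KO) and 6.00 CPM (2 labelled WT), and within the rest they were 5.94 CPM (3) and 4.07 CPM (4). With the ribosomal RNA share as a covariate the log2 fold change was 0.39 (adjusted p = 0.399), and without the 5 libraries it was 0.54 (adjusted p = 0.155). NK11, which had the lowest Htr1b level, also had the lowest sums of D1 markers (24.6 CPM) and D2 markers (64.1 CPM), and both sums were, like Htr1b, higher on average under the TAAR5-KO label. Without NK11 the log2 fold change of Htr1b was 0.40. The part of the spiny neuron markers in the difference was not tested. The antisense neighbour D430036J16Rik had 12 to 58 counts per library and differed by 0.34 on the log2 scale (SE 0.26, adjusted p = 0.644).

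**Figure D4:**
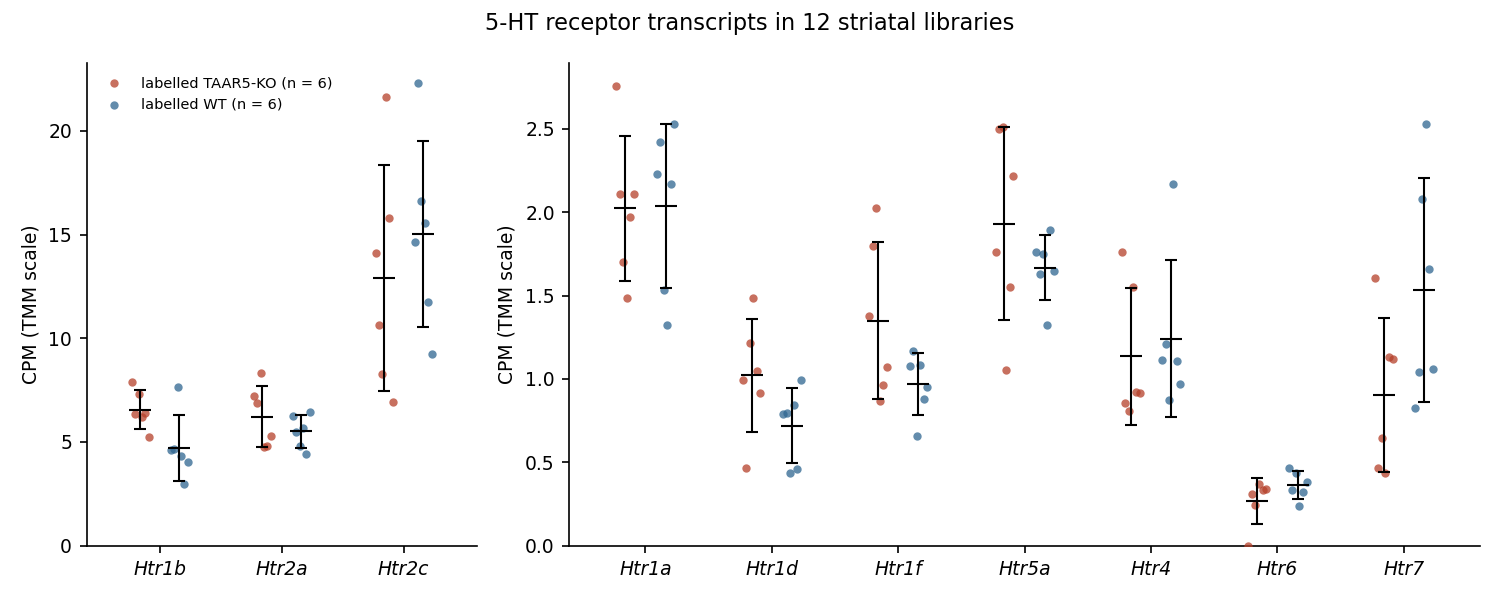
Level of each receptor gene (CPM on the TMM scale, linear axes of different range in both panels) in each library, with the mean and SD of each label (n = 6). Labels overlap for all 10 genes, and for Htr1b the overlap is the library at 7.66 CPM labelled WT.

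Htr1a is the Gi/o-coupled receptor that also serves as autoreceptor on raphe neurons (chromosome 13, 105580147 to 105584630, a gene of a single exon). It ran from 1.49 through 2.04 to 2.76 CPM in libraries labelled TAAR5-KO and from 1.32 through 2.20 to 2.53 CPM in those labelled WT. The labels overlapped over nearly the whole range, and the log2 fold change was −0.11 with a 95% interval from −0.44 to 0.23.

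Htr1d (chromosome 4, 136150835 to 136171709), a close relative of Htr1b, had 4 to 44 counts per library. It reached 0.468, 1.02 and 1.49 CPM (lowest, median and highest) in libraries labelled TAAR5-KO and 0.438, 0.793 and 0.994 CPM in those labelled WT. Although 4 libraries labelled TAAR5-KO were above every library labelled WT, 1 (NK2) was among the lowest, and the log2 fold change of 0.43 (SE 0.26, adjusted p = 0.526) was within the spread.

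Htr1f (chromosome 16, 64745092 to 64926217) was measured at 0.867, 1.22 and 2.03 CPM in libraries labelled TAAR5-KO and at 0.656, 1.02 and 1.17 CPM in those labelled WT. The 3 libraries above all those labelled WT were NK1, NK2 and NK3, which are also the 3 libraries labelled TAAR5-KO with over 85% ribosomal RNA. On the log2 scale the difference was 0.37 (SE 0.23, adjusted p = 0.540), and without the 5 libraries over 85% it was −0.03.

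Htr5a, the remaining Gi/o-coupled receptor (chromosome 5, 28047147 to 28060086), ran from 1.05 through 1.99 to 2.51 CPM in libraries labelled TAAR5-KO and from 1.32 through 1.70 to 1.89 CPM in libraries labelled WT. Its spread was wider in the first (CV 30.03%) than in the second (CV 11.6%), and this difference in spread was not tested. On the log2 scale it differed by 0.18 between labels (SE 0.19, adjusted p = 0.771). The difference was −0.027 without the 5 libraries over 85% ribosomal RNA and 0.039 with the choroid plexus covariate. The libraries highest in Htr5a, NK2, NK3 and NK6, were also high in summed markers of cortical pyramidal neurons (130.3, 154.7 and 139.9 CPM), and the lowest, NK4, had the lowest sum of them (60.3 CPM). NK12, however, had the highest sum (159.6 CPM) and an Htr5a level of only 1.65 CPM, and the part of cortical RNA in these levels was not tested.

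Htr2a encodes the 5-HT2A receptor, which couples to Gq and is abundant in cortical pyramidal neurons (chromosome 14, 74878280 to 74946934). Counts ran from 77 to 203 in libraries labelled TAAR5-KO and from 44 to 285 in those labelled WT. Its level was 4.77, 6.08 and 8.35 CPM (lowest, median and highest) in the first and 4.43, 5.57 and 6.44 CPM in the second. NK1, NK2 and NK3 were above every library labelled WT, while NK4, NK5 and NK6 lay within their range. The fitted log2 difference was 0.13 (SE 0.15, adjusted p = 0.787), with an interval from −0.16 to 0.43, and it was −0.19 without the 5 libraries over 85% ribosomal RNA. Summed cortical pyramidal markers did not separate the labels (108 ± 39.4 against 110 ± 37.9 CPM, SD, n = 6, two-sided exact permutation test, p = 0.911), and all 11 of these genes found in the table were detected above the floor in at least 11 libraries.

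Htr2c encodes the Gq-coupled 5-HT2C receptor, whose RNA is edited by ADAR enzymes (ENSMUSG00000041380.14, chromosome X, 145745509 to 145980273). It had 102 to 377 counts in libraries labelled TAAR5-KO and 129 to 534 in those labelled WT. Its level ran from 6.91 (NK6) through 12.4 to 21.6 CPM (NK4) in libraries labelled TAAR5-KO and from 9.22 (NK12) through 15.1 to 22.3 CPM (NK8) in those labelled WT. The highest library was 3.23 times the lowest, and the labels overlapped widely. The means were 12.9 ± 5.45 and 15 ± 4.48 CPM (SD, n = 6), or −0.22 on the log2 scale (SE 0.24, adjusted p = 0.784). Counting error alone would give an SD of 0.891 and 0.991 CPM, so most of the spread between libraries was not counting error.

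The libraries differed in choroid plexus markers, and Htr2c was mostly higher where these were high. The summed level of the 10 markers (Ttr, the transthyretin gene, and 9 others) lay between 4.86 and 525 CPM under the TAAR5-KO label, with a median of 7.91, and between 5.51 and 318 CPM under the WT label, with a median of 199 (exact permutation test, two-sided, p = 0.574, adjusted 0.765). In NK1, NK2, NK3, NK6 and NK12 the sum was 4.86 to 10.3 CPM, and Htr2c was 6.91 to 14.1 CPM. Among these, Htr2c did not follow the sum, since NK6 had the highest sum and the lowest Htr2c. In the other 7 libraries the sum was 126 to 525 CPM, and Htr2c was 11.7 to 22.3 CPM. The first set holds 4 libraries labelled TAAR5-KO and 1 labelled WT. Mean Htr2c was 9.97 CPM (4 labelled TAAR5-KO) and 9.22 CPM (1 labelled WT) in the first set, and 18.7 CPM (2) and 16.2 CPM (5) in the second. With 1 library labelled WT in the first set, the labels cannot be compared there, and NK3 (8.27 CPM) and NK6 (6.91 CPM), labelled TAAR5-KO, were below it. The part of choroid plexus RNA in the difference was not tested. With the log2 of this sum as a covariate, the log2 fold change of Htr2c was 0.10 (SE 0.17, adjusted p = 0.856, against a range of 0.373 to 0.991 over the 25 alternatives).

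**Figure D5:**
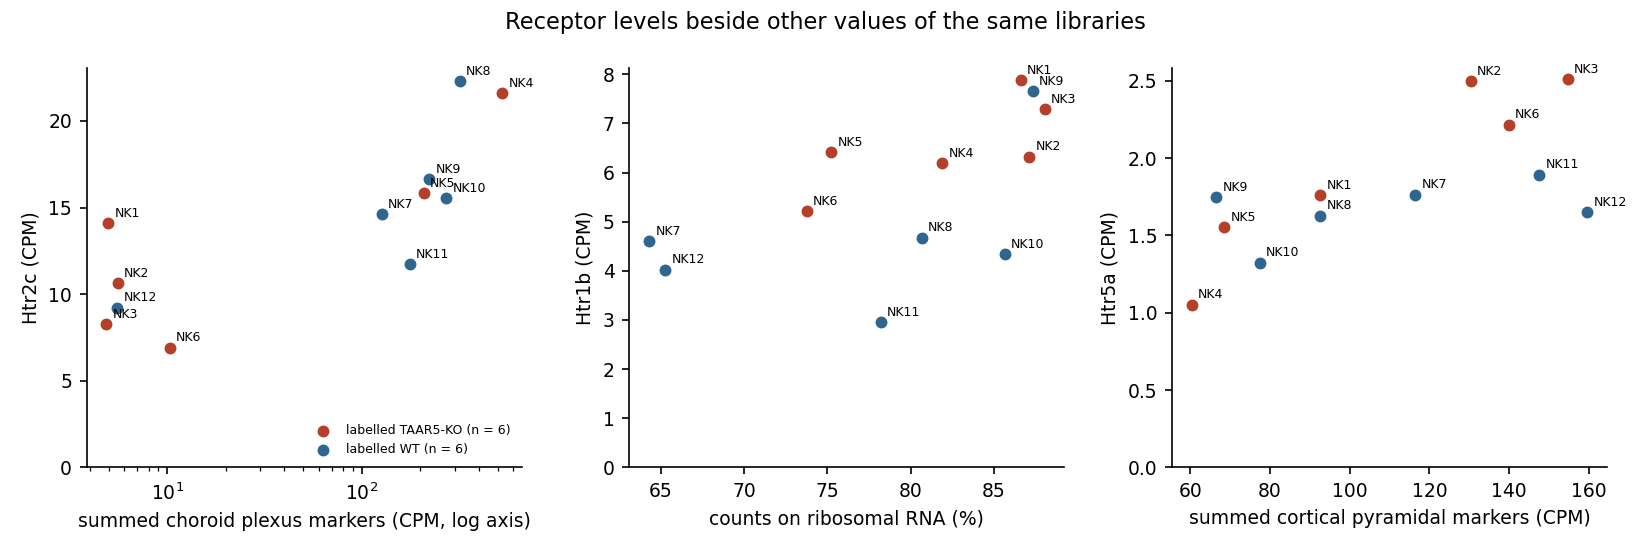
Htr2c against the summed choroid plexus markers (log axis), Htr1b against the share of counts on ribosomal RNA, and Htr5a against the summed cortical pyramidal markers, with each of the 12 libraries as a labelled point. The 2 libraries highest in Htr2c, NK8 and NK4, are also the 2 highest in choroid plexus markers, and NK9 is the library labelled WT with the most ribosomal RNA and the most Htr1b.

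The introns of Htr2c host 7 microRNA features and the small nucleolar RNA Snora35, and each of them stayed at 3 counts or fewer in every library. Libraries of this kind are not made to measure such short RNAs.

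The Gs-coupled receptors were all lower in the estimate, and none was past the threshold. Htr7 (chromosome 19, 35936134 to 36034907) had 6 to 43 counts in libraries labelled TAAR5-KO and 19 to 47 in those labelled WT. It ran from 0.434 through 0.885 to 1.61 CPM in the first and from 0.828 through 1.36 to 2.53 CPM in the second. The 3 lowest libraries of all, NK2, NK3 and NK4, were labelled TAAR5-KO, and the 3 highest, NK9, NK10 and NK11, were labelled WT. The means were 0.902 ± 0.463 and 1.53 ± 0.673 CPM (SD, n = 6), or −0.64 on the log2 scale (SE 0.32, unadjusted p = 0.0456, adjusted p = 0.408, edgeR likelihood ratio test). It was negative in all 25 alternatives, from −0.92 to −0.26, the latter without the 5 libraries over 85% ribosomal RNA. Within those libraries Htr7 was at 0.908 CPM (3 labelled TAAR5-KO) and 2.30 CPM (2 labelled WT), and within the rest at 0.896 and 1.15 CPM.

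Htr4 (chromosome 18, 62457275 to 62629648) ran from 0.810 through 0.918 to 1.76 CPM in libraries labelled TAAR5-KO and from 0.875 through 1.11 to 2.17 CPM in those labelled WT. The labels overlapped, the log2 fold change was −0.08 (interval from −0.55 to 0.39), and its sign turned without NK10 (0.06) and without NK6 (0.0019).

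Htr6, the receptor with the fewest counts and known from spiny neurons (ENSMUSG00000028747.11, chromosome 4, 138788419 to 138802881), had 85 counts in all. The libraries labelled TAAR5-KO had 0, 4, 3, 6, 8 and 13 counts (NK1 to NK6) and those labelled WT had 13, 8, 4, 2, 7 and 17 (NK7 to NK12). In CPM this was 0.267 ± 0.138 and 0.365 ± 0.0829 (SD, n = 6), where counting error alone would give an SD of 0.123 and 0.148. The log2 fold change of −0.37 (SE 0.33, adjusted p = 0.701) has an interval from −1.01 to 0.27, so a change of that size was not detectable at this depth. Exons of Htr6 had the highest GC content of the 10 genes (63.1%, against a median of 48.4% over the features tested), and with the GC trend removed the log2 fold change was −0.21. Without NK1, the library with 0 counts, it was −0.19, and without the 5 libraries over 85% ribosomal RNA it was −0.14.

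The other genes of the serotonin pathway were read from 6 lists of 50 genes, of which 44 were tested. Past the threshold was 1 gene of the 44, near the 1.65% of all features, and 6 had an unadjusted p under 0.05, where 11.9% of all features did. The 1 gene was Aldh2, which encodes mitochondrial aldehyde dehydrogenase, an enzyme that oxidizes the aldehyde made from serotonin. It fell from 8.70 ± 0.718 CPM in libraries labelled WT to 6.59 ± 1.48 CPM (SD, n = 6) under the TAAR5-KO label, or by 0.40 on the log2 scale (SE 0.13, adjusted p = 0.0977, edgeR likelihood ratio test). It was past the threshold in 6 of its 25 alternatives (range of adjusted p 0.0119 to 0.7004), and not by the quasi-likelihood test. Of the astrocyte markers, all 6 had negative log2 fold changes and 4 an unadjusted p under 0.05, and 1 fell past the threshold, Gja1 (connexin 43), by 0.41 on the log2 scale (adjusted p = 0.0569, edgeR likelihood ratio test). The log2 fold change was −0.56 for Gfap (adjusted p = 0.128), −0.40 for Aqp4 (adjusted p = 0.190), −0.19 for Slc1a3 (adjusted p = 0.324), −0.15 for Aldh1l1 and −0.044 for Slc1a2. The sum of the list was 1094 ± 87.4 and 1160 ± 64.6 CPM (exact permutation test, two-sided, p = 0.182), of which Slc1a2 alone held 940 and 969 CPM. The part of astrocytes in the level of Aldh2 was not tested.

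Of the 10 genes of synthesis, transport and breakdown, 7 were tested. Tph2, the brain tryptophan hydroxylase, was at or under the floor in 9 of 12 libraries, the serotonin transporter gene Slc6a4 in 12 of 12 and Tph1 in 11 of 12, and Fev, a transcription factor of serotonin neurons, in 12 of 12. The monoamine oxidase gene Maoa differed by −0.0053 on the log2 scale (SE 0.11), with 4.27 ± 0.437 and 4.38 ± 0.289 CPM (SD, n = 6). On the Gi/o side, 0 of 8 genes were past the threshold (1.65% of all features), from Gnai2 (log2 fold change −0.26, SE 0.089, adjusted p = 0.134) to the potassium channel gene Kcnj6 (0.0079, SE 0.20). Among 6 genes of the Gq side the smallest p belonged to Plcb1, the phospholipase C beta 1 gene (0.21, SE 0.11, adjusted p = 0.425), and the largest to Plcb4 (0.0010, SE 0.13). Among 10 genes of the Gs side, 0 were past the threshold (1.65% of all features) and 4 had an unadjusted p under 0.05 (11.9% of all), with the smallest for Gnas (−0.29, SE 0.099, adjusted p = 0.147) and the largest for Prkacb (0.03, SE 0.079). All 12 receptor partners and editing enzymes had negative log2 fold changes (median −0.10), where 48.9% of all features were positive. Of these 12, 0 had an unadjusted p under 0.05 (11.9% of all features) and 0 were past the threshold (1.65% of all). By p they ran from Cdk5 (−0.21, adjusted p = 0.434) to the editing enzyme gene Adar (−0.0055, adjusted p = 0.991).

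Across the 12 libraries, the receptors did not vary as a family. Of the 45 pairs, Htr1f and Htr2a were most alike in log2 CPM (Pearson's r = 0.84, Spearman's rho = 0.83), with r = 0.95 among libraries labelled TAAR5-KO and 0.56 among those labelled WT. Htr2c and Htr5a were most opposed (r = −0.74, rho = −0.76). These values describe libraries that share differences in ribosomal RNA, choroid plexus and cortical markers, and no p is given for pairs picked as the extremes.

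For each receptor, the features with the largest Pearson's r of log2 CPM over the 12 libraries were looked up among the other 13901 features tested. For Htr1b they were Fra10ac1 (r = 0.97, rho = 0.98) and Ryr3, a ryanodine receptor gene (r = 0.95, rho = 0.94), and r stayed at 0.93 and 0.94 without NK11 and NK12, the 2 libraries farthest from the median. For Htr2c they were Sulf1 (r = 0.94, rho = 0.94) and Col4a3, a collagen IV gene (r = 0.92, rho = 0.95). Htr2a was most like Spred1 (r = 0.94) and Fbxl16 (r = 0.93), Htr1f like Vps13d (r = 0.94) and Phax (r = 0.92), and Htr5a like Srpk2 (r = 0.93) and Slc16a7 (r = 0.92). Htr1a was most like Rnf111 (r = 0.90) and Igip, Htr1d like Abcb1b (r = 0.90) and Zkscan3, Htr4 like Psen2 (r = 0.91) and Adam12, and Htr7 like Gcdh and Zfp395 (r = 0.90 each). Those of Htr6 were Eepd1 and Med21, and both rest in part on its libraries at both ends. Without NK1 and NK7, r fell from 0.93 to 0.59 for Eepd1 and from 0.91 to 0.20 for Med21. The values are the largest of many and describe these libraries only.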

How the data were processed

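After removal of ribosomal RNA, directional libraries were read from one end over 100 bases (the labels' molecule field reads polyA RNA). The authors trimmed reads with Cutadapt 4.1, aligned them with STAR 2.7.11b to GRCm39 (GENCODE M35) and deposited whole-number counts per gene from featureCounts 2.0.6, with the length of merged exons. Strand setting and treatment of multi-mapping reads are not given in the sources used here. The table's other 12 libraries, of another gene, are left aside.

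From the counts, features reaching 0.5 CPM in 3 or more libraries entered the fit. They were scaled by the trimmed mean of M-values (TMM) and tested with glmLRT of edgeR 4.0.16 (R 4.3.3), called at an adjusted p under 0.1. Cutoffs and test are those of the study's methods, but the CPM of the filter rest here on total counts. The study reports 13053 features tested, the number reached with CPM on TMM library sizes. The 13902 features tested here therefore differ from the study's. So do the calls, 229 here (133 higher, 96 lower) and 234 (135 higher, 99 lower) with CPM on TMM library sizes. The study called fewer genes at the same threshold, more of them lower than higher in the knockout. The reason for this was not tested. Intervals are 1.96 SE either side. Alternatives were the quasi-likelihood test, DESeq2 1.42.0, other scalings and filters, removal of length or GC trends (loess, span 0.5) and leaving out each library. Fits with a ribosomal RNA or choroid plexus covariate, and without 5 libraries, were chosen after seeing the data. Floors and counting SDs cover counting error only. Log2 CPM used a prior count of 2. Marker sums and ribosomal RNA shares were compared by an exact permutation test over all assignments of 6 and 6. Exon sequences and GC content were read from the GRCm39 genome at the deposited coordinates, and near copies searched with BLAST 2.17.0 among GENCODE M39 transcripts. The fit was tested on simulated data.

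The receptors, marker lists and pathway lists were chosen with earlier results of these data known. Named were the 10 receptors, the other 4 receptor genes, each listed gene past the threshold or else the ones with the smallest and largest p of a list, the 2 features most like each receptor, and Taar5. Genes with reason to be named beside these (Gja1 and the other astrocyte markers, D430036J16Rik, Gm61665, Fev) were chosen after their values were seen. Tph1 and Tph2 were named for their place at the floor. A comparison of receptor proteins was planned and not made. The labels do not say more of the libraries than 6 animals per genotype, so p-values measure the spread between these.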

Additional observations from a re-analysis of the deposited data

Results flagged for a closer look

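Dixon's test of the highest and lowest of 6 libraries was applied to the CPM of each receptor under each label, and chance alone gives about 1 flag in 20 such groups. Of the 20 groups examined, 3 held a library far from the others. Htr1b was at 7.66 CPM in NK9, labelled WT, with a gap of 0.634 of the range, above Dixon's critical value, and without it the log2 fold change was 0.66 (adjusted p = 0.00241, range over all alternatives 0.00241 to 0.974). Htr4 was at 2.17 CPM in NK10, labelled WT (0.740 of the range), on 18 counts. Htr6 was at 0 CPM in NK1, labelled TAAR5-KO (0.654 of the range), where a count of 0 allows up to 3 counts, or 0.230 CPM. NK9, NK10 and NK1 are all among the 5 libraries with over 85% of counts on ribosomal RNA, and the part of this in the 3 values was not tested.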

How the results depend on the processing

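The 10 log2 fold changes were recomputed under 25 alternative settings, which gave 248 values, as Htr6 had none under 2 of the filters. Of these values, 226 kept the direction and the side of the threshold and 7 kept the direction with no adjusted p (DESeq2, independent filtering). Past the threshold were 2 of the values, both of Htr1b, without NK6 or NK9. Leaving out each library in turn thus gave 0 to 1 receptors called, and all other settings gave 0. When only library size was scaled for, the direction turned for Htr1d (−0.061), Htr1f (−0.26), Htr2a (−0.53) and Htr5a (−0.37). Htr4 ran from −0.21 to 0.057 when 1 library was left out and turned without NK6 (0.0019) and NK10 (0.057). With the choroid plexus covariate Htr2a (−0.041), Htr2c (0.10) and Htr4 (0.0096) turned, and without the 5 libraries over 85% ribosomal RNA Htr1f (−0.030), Htr2a (−0.19), Htr2c (0.031) and Htr5a (−0.027) did. The cause was not tested. The 229 features called (133 higher, 96 lower) became 63 with the quasi-likelihood test, 7 with library size only (0 higher, 7 lower), 93 without a filter, 86 with the GC trend removed, 108 at an adjusted p under 0.05, 98 with the ribosomal RNA covariate, 80 without the 5 libraries and 85 to 414 when 1 library was left out. All 10 receptors passed the filter on total counts, and 9 passed filterByExpr and the filter on TMM library sizes, both without Htr6. In the order of levels per length, 6 of the 10 kept their rank with the transcript lengths of the later release and 6 to 10 when 1 library was left out, with Htr2c first and Htr6 last each time. No paired analysis was possible because the columns carry no replicate number of the labels. For Htr6, depth limits the comparison, since its SDs between libraries (0.138 and 0.0829 CPM) were of the size of counting error alone (0.123 and 0.148 CPM).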
